A study of Mus musculus with 46 samples.

Results

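The genes described here are 46 components of the mitotic machinery: the mitotic cyclins and kinases, the spindle checkpoint, the chromosomal passenger complex, the centromere and kinetochore, the mitotic kinesins, cohesin, condensin and topoisomerase II, and spindle assembly and cytokinesis factors. They were listed by symbol and by known function, with earlier results of these data in view, and all 46 were among the 9857 symbols that the count tables of both treatments list once. Ribosome footprints and polyadenylated RNA were counted in EPP2 cells, a mouse pancreatic cancer cell line cultured with serum. The control cells carried the WT genotype, and the Ctu1KO cells had lost Ctu1 after 300 ng/ml doxycycline for 4 days. Both received either DMSO or 300 nM torin 1, an inhibitor of the mTOR kinase, for 2 h before harvest. All cells carried a doxycycline-inducible Cas9. The study describes its EPP2 screening line with this Cas9 as a clone grown from 1 cell, and made inducible knockouts by transducing guide pairs into such lines. The study's knockout controls were either guide pairs against non-coding regions or cells that received no doxycycline, and which of these the control libraries were is not given in the sources used here. The labels give doxycycline for the Ctu1KO libraries only. If the control cells received none, doxycycline and Cas9 induction cannot be told apart from loss of Ctu1. Ctu1 loss below stands for the comparison of Ctu1KO with control cells. The 23 footprint libraries were 6 of control cells in DMSO, 6 of control cells in torin 1, 5 of Ctu1KO cells in DMSO and 6 of Ctu1KO cells in torin 1. The RNA libraries used were replicates 1 to 3 of each group, 12 in all.

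In dividing cells, cyclin B bound to the kinase Cdk1 drives entry into mitosis, condensin and topoisomerase II compact the chromosomes, and cohesin holds sister chromatids together. Kinetochores built on the histone variant Cenpa bind spindle microtubules, and the checkpoint kinases and their partners hold back the ubiquitin ligase APC/C and its activator Cdc20 until every kinetochore is attached. Most of these genes are transcribed in G2 and mitosis, from promoters that often hold CCAAT boxes and a cell cycle homology region, so their summed RNA follows the share of cells in those phases. In bulk libraries such as these, fewer cells in mitosis and less RNA per cell cannot be told apart. Ctu1 is a thiolase that, with its partner Ctu2, modifies the wobble uridine of the tRNAs that read AAA, GAA and CAA, together called VAA codons below.

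The coding sequences of these genes were rich in the codons that Ctu1-dependent tRNAs read. The VAA share of codons, taken from 1 GENCODE M21 coding sequence per gene, had a median of 10.5% over the 46 genes (range 3.98 to 17.5%), beside 6.13% over the 9618 listed genes with a coding sequence. Of the 46 genes, 39 lay above that all-gene median and 28 above the upper quartile of all genes, 8.70%. By role, the median share was 13.9% for the centromere and kinetochore genes, 12.6% for the kinesins, 11.5% for cohesin, condensin and topoisomerase, and 7.41% for the mitotic cyclins and kinases. The highest share was that of Smc4, a condensin ATPase with long coiled coils, at 17.5%, and the lowest that of Spc24, a small subunit of the Ndc80 complex, at 3.98%. Glutamate, lysine and glutamine together took 22.9% of the codons of these genes at the median, beside 17.7% in all genes, and VAA codons made up 42.6% of the codons for those amino acids, beside 35.3%, so both the amino acids and the choice among their codons differed from the typical gene. The plot of VAA share by role shows the spread within each group.

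**Figure D1:**
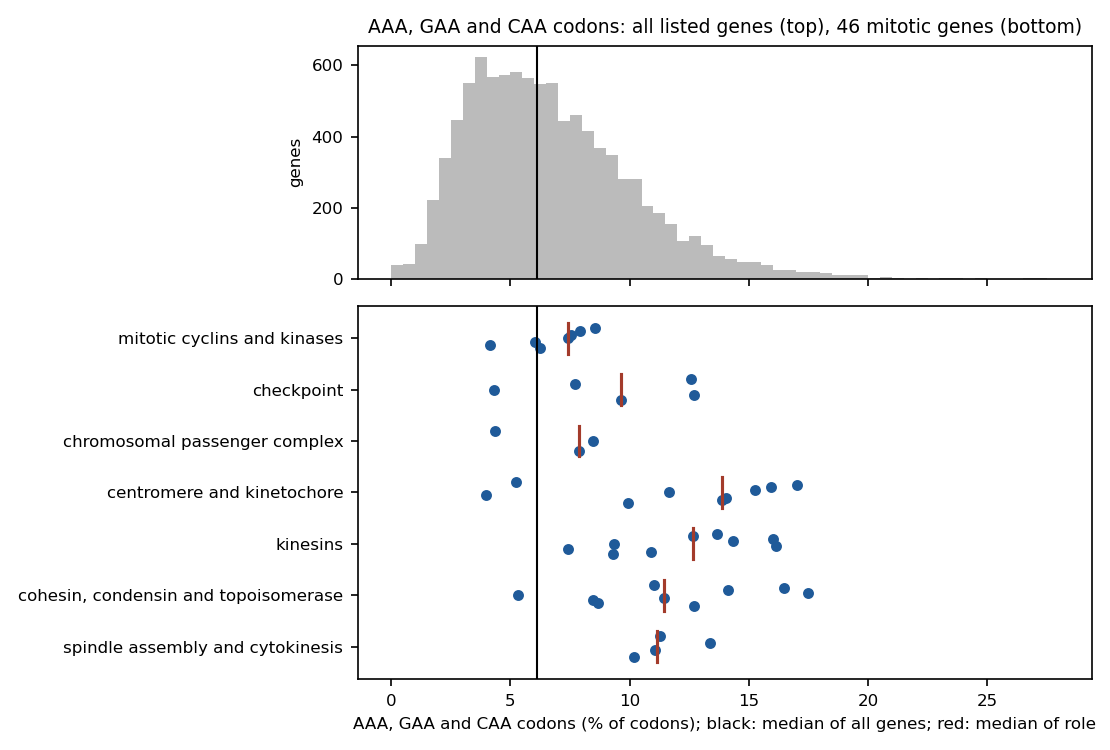
Share of AAA, GAA and CAA codons (percent of codons, x axis) for all 9618 listed genes with a coding sequence (top, number of genes) and for the 46 mitotic genes by role (bottom, 1 point per gene). The black line marks the all-gene median of 6.13%, red lines mark role medians, and 39 of the 46 points lie to the right of the black line.

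The densest runs of 40 codons show what this enrichment looks like in the message. They are shown for Smc4 and for Cenpe, Cenpf and Kif15, whose RNA differed between groups in the comparisons below. VAA codons are in capitals, and every sequence is read 5′ to 3′ on the coding strand of GRCm38. In Smc4 they make up 18 of the 40 codons 382 to 421 (chr3:69019203-69019322, plus strand, 1 exon). In Cenpe they are 16 of codons 515 to 554 (2 exons within chr3:135232951-135233733, plus strand), in Cenpf 16 of codons 592 to 631 (chr1:189659741-189659860, minus strand, 1 exon) and in Kif15 16 of codons 905 to 944 (2 exons within chr9:122999527-123001090, plus strand).
Smc4: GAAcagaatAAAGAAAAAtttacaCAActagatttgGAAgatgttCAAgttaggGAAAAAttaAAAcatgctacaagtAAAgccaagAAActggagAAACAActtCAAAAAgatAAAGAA
Cenpe: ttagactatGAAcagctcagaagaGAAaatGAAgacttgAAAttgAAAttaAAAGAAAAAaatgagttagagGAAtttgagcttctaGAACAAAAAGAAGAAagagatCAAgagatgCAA
Cenpf: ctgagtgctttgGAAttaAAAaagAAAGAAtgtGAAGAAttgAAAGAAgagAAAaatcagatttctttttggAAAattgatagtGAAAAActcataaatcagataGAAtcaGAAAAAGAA
Kif15: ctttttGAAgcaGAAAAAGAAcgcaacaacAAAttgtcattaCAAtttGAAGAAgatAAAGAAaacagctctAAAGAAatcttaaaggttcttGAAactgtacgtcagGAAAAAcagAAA

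Promoters are shown because most of the 46 genes lay on the same side of 0 in each footprint and RNA comparison between pairs of groups below, although at most 6 were called in any of them without the replicate block. RefSeq promoter windows on GRCm38.p6 were found for 38 of the 46 genes, and for Tpx2, Incenp, Spc24, Rad21, Ccna2, Aurkb, Kif20a and Smc4 none was used here. On either strand of the 150 bases before the start, CCAAT was present in 25 of the 38 (65.8%), beside 29.97% of the 7829 promoters of genes listed in the count tables and 25.3% of all 27025 promoters. TTTGAA or TTCGAA, the core of the cell cycle homology region, was present in 12 (31.6%), beside 6.21% of the listed genes and 9.89% of all promoters. Both were present in 9 (23.7%), namely Ect2, Smc2, Cdc20, Ncapd2, Kif22, Bub3, Cdk1, Top2a and Kif11, beside 2.25% of the listed genes and 2.52% of all promoters. CCAAT and TTTGAA can share their end base, TTCGAA is its own reverse complement, and a match is a description of the sequence, not a bound site. Windows of Cdk1, Kif11 and Ncapd2 are given with the matches on either strand in capitals: Cdk1 (chr10:69352913-69353062, minus strand), the kinase itself, Kif11 (chr19:37376232-37376381, plus strand), whose RNA fell in Ctu1KO cells, and Ncapd2 (chr6:125191587-125191736, minus strand).
Cdk1: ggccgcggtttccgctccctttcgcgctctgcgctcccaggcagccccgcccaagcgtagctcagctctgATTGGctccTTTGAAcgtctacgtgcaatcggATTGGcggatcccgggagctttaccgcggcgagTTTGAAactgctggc
Kif11: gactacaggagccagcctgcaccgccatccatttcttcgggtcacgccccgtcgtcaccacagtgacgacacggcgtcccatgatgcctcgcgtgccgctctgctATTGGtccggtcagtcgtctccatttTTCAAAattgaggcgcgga
Ncapd2: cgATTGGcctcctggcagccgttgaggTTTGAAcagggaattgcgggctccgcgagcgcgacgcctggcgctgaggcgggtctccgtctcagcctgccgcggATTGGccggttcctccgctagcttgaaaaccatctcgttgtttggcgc

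Depth and identity of the libraries were as follows. Footprint libraries held 4602092 to 52907878 counts and the RNA libraries used held 129881946 to 293648854, and the lowest count of any of the 46 genes was 70 in footprints and 1042 in RNA, both for Kif18a, so all 46 passed the filter of a mean of 10 counts in every comparison. Ctu1 itself was listed only in the DMSO tables, where its footprints were 1.58 to 3.43 counts per 1000000 (CPM) in control and 1.30 to 2.28 in Ctu1KO libraries, a log2 fold change of -0.54 ± 0.29 (SE; edgeR, adjusted p = 0.353), and its RNA was 4.54 to 4.76 against 4.37 to 4.96 CPM, a log2 fold change of 0.02 ± 0.11 (edgeR, adjusted p = 0.926). The ranges overlapped in both assays, so the counts of Ctu1 do not check the genotype labels. RNA replicates 4 to 6 were not used, and 6 of those 11 libraries lay nearer to the other treatment than to their own label, on an axis drawn through replicates 1 and 2 of each group. Of the RNA libraries used, those 8 set the axis and are not checked by it, and 0 of the 4 replicates 3 lay nearer to the other treatment. On the like footprint axis, from 0 (DMSO) to 1 (torin 1), control torin 1 replicates 3 to 6 stood at 0.499, 0.533, 0.540 and 0.535. Replicate 3 thus lay near the midpoint. Control DMSO replicates 3 to 6 stood at -0.071 to 0.040. Of the 39 cell type markers, 17 were listed for DMSO and 14 for torin 1. Of the epithelial markers, 4 of 8 were listed in the DMSO tables (Krt8, Krt18, Krt19 and Epcam) and Cdh1 was not, whereas all 5 mesenchymal markers and 6 of 7 fibroblast markers were, the latter Col1a1, Col3a1, Pdgfra, Pdgfrb, Dcn and Lum. Of 6 immune markers, Cd68 and Cd14 were listed there, and no endothelial, acinar or endocrine marker was. Epcam, Dcn and Cd68 were not listed in the torin 1 tables. Summed marker RNA in DMSO was 267 to 283 CPM in control and 295 to 364 in Ctu1KO libraries for the epithelial list, and 4.51 to 5.14 against 5.79 to 6.18 for the immune list, in both without overlap. It was 5294 to 6669 against 6465 to 9730 CPM for the mesenchymal list and 352 to 566 against 402 to 694 for the fibroblast list, which overlapped. Summed footprints overlapped for each list, at 261 to 324 against 305 to 393 CPM (epithelial), 5393 to 7376 against 5416 to 8890 (mesenchymal), 743 to 1350 against 655 to 1547 (fibroblast) and 3.71 to 5.60 against 4.21 to 10.8 (immune). The part of these differences in the Ctu1KO comparisons in DMSO below was not tested.

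In control cells in DMSO the 46 genes spanned a wide range of footprint levels per kilobase of coding sequence, which are not divided by RNA. The highest footprint level was that of Cenpa, the centromeric histone, at 547 ± 145 CPM per kb (SD, n = 6), followed by Cdk1 at 386 ± 45.3, Zwint, which links Knl1 to the outer kinetochore, at 366 ± 18.4, and Ccnb1 at 292 ± 27.8. In this order Cenpa and Cdk1, and Cdk1 and Zwint, lay no further apart than the sum of their SDs, whereas Zwint and Ccnb1 did. At the other end, Kif18a, a kinesin that shortens kinetochore microtubules, stood at 5.45 ± 1.27 and Cenpe, a kinesin that carries chromosomes to the spindle equator, at 5.61 ± 0.86, which do not differ beyond their spread. Footprints relative to RNA, as the log2 ratio of mean CPM in replicates 1 to 3 of control DMSO cells, had a median of 0.15 over the 46 genes (SD 0.06 over 3 cultures) beside -0.27 over all listed genes. For single genes the ratio was taken from all 6 footprint libraries over RNA replicates 1 to 3. Within the 46, it ran from -0.86 for Incenp, the scaffold of the passenger complex, through -0.75 for Smc1a and -0.73 for Rad21 in cohesin, to 1.01 for Ndc80 and 1.11 for Knl1, both microtubule-binding parts of the kinetochore.

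Loss of Ctu1 in DMSO was first compared in footprints, which combine the amount of a message with the ribosomes it carries. The study reported higher ribosome occupancy at VAA codons in Ctu1-deficient cells, and the part of this in footprint counts was not tested. Footprints were lower in Ctu1KO cells for 42 of the 46 genes by fitted value, but only 4 fell at an adjusted p under 0.05 and none rose. The 4 were Ncapd2, the kinesin Kif20a, the checkpoint protein Bub1b and the kinetochore protein Cenpf, and over all 10397 genes tested 1.04% were called lower, 1.63% higher and 2.66% in either direction. The median log2 fold change of the 46 genes was -0.28, beside -0.00043 over all genes, of which 50.1% were below 0. The 4 genes at or above 0 were Nuf2 (0.01), Spc25 (0.07), Bub3 (0.08) and Prc1 (1.63), none of which passed the test.

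Ncapd2, a regulatory subunit of condensin I, had 196 to 224 CPM (median 214) in the 6 control libraries and 168, 162, 170, 160 and 147 CPM in the 5 Ctu1KO libraries. Every Ctu1KO library lay below every control library, and the log2 fold change was -0.38 ± 0.07 (SE; edgeR's quasi-likelihood test with Benjamini-Hochberg adjustment over all genes, adjusted p = 0.0159). Ncapd2 was also called in each of the 11 fits that left out 1 library. Kif20a, which moves the passenger complex to the central spindle, had 432 to 545 CPM (median 529) in control and 308, 376, 369, 399 and 410 in Ctu1KO libraries. Its groups did not overlap either, and it fell by 0.45 ± 0.09 on the log2 scale (edgeR, adjusted p = 0.0211), a call made in 7 of those 11 fits.

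Cenpf, a large coiled-coil protein of the outer kinetochore, had 65.4 to 76.4 CPM (median 69.1) in control libraries. In Ctu1KO libraries it had 52.4, 52.2, 26.6, 42.5 and 45.7 CPM, all below control, with replicate 3 the lowest. The log2 fold change was -0.68 ± 0.15 (edgeR, adjusted p = 0.0285). Bub1b, which inhibits Cdc20 as part of the mitotic checkpoint complex, had 64.9 to 84.8 CPM (median 77.9) in control and 59.9, 54.8, 48.4, 61.5 and 52.2 in Ctu1KO libraries, again with no overlap, and a log2 fold change of -0.46 ± 0.10 (edgeR, adjusted p = 0.0274). Cenpf and Bub1b were each called in 5 of the 11 fits that left out 1 library. With the replicate block, although these libraries were not taken as pairs, Bub1b was not called (edgeR, adjusted p = 0.0561). Kif15 was the remaining gene of the 5 whose groups did not overlap, all lower, beside 4.62% of all listed genes without overlap, 2.27% lower and 2.34% higher.

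The number of genes called rested on single libraries. It was 6 without control replicate 1 or without Ctu1KO replicate 4, 2 without control replicate 2, Ctu1KO replicate 3 or Ctu1KO replicate 5, and 1 without control replicate 3 or control replicate 5, always including Ncapd2. With a term that separated replicates 1 and 2 from 3 to 6, 11 genes were called, beside 737 of all 10397 genes in that fit, and within replicates 3 to 6 alone there were 2. Replicates 1 and 2 alone called 0, and so did replicates 1 to 3.

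RNA of the same cultures, in replicates 1 to 3, showed a like picture. It was lower in Ctu1KO cells for 43 of the 46 genes, with a median log2 fold change of -0.26 beside -0.0016 over all genes. It fell for 4 genes by edgeR without a block: Kif15, Kif11, Ncapd2 and Cenpa. Over all 10119 genes tested, 5.12% were called, 1.8% lower and 3.32% higher. Groups of 3 did not overlap for 26 of the 46, all lower, beside 31.7% of all listed genes, 17.3% lower and 14.4% higher. Here the replicate numbers paired the cultures, and with the replicate number as a block 28 genes fell and none rose, beside 13.6% of all genes called lower in that fit.

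Kif15, a kinesin that helps keep the bipolar spindle, had 61.0, 67.3 and 67.1 CPM of RNA in control and 45.9, 45.2 and 42.0 in Ctu1KO libraries. The groups lay well apart, and the log2 fold change was -0.54 ± 0.07 (edgeR, adjusted p = 0.0165). Kif11, the motor that pushes spindle poles apart, had 58.1, 64.1 and 64.8 against 46.03, 46.1 and 43.3 CPM, a log2 fold change of -0.45 ± 0.07 (edgeR, adjusted p = 0.0204). Ncapd2 RNA had 171, 176 and 185 against 136, 140 and 120 CPM, a log2 fold change of -0.41 ± 0.08 (edgeR, adjusted p = 0.0321), close to that of its footprints. Cenpa had 292, 274 and 301 against 225, 234 and 202 CPM and fell by 0.37 ± 0.08 on the log2 scale (edgeR, adjusted p = 0.0400). All 4 also passed with the block. The unblocked count rested on single libraries: it was 3 without Ctu1KO replicate 3, 2 without control replicate 1, 1 without control replicate 3 and 0 without control replicate 2 or without Ctu1KO replicate 1 or 2.

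**Figure D2:**
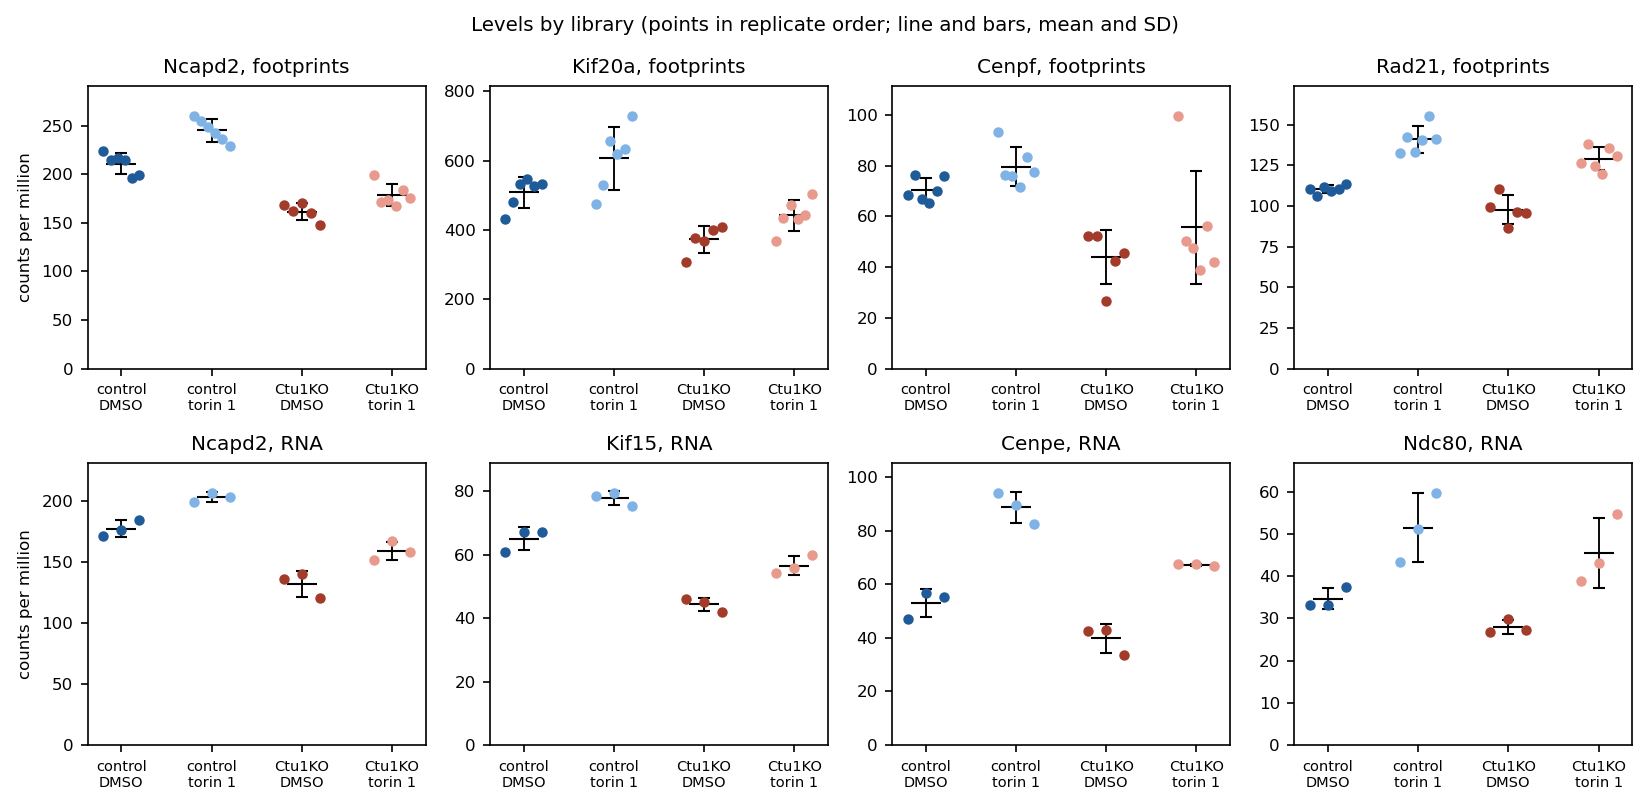
CPM (y axis, from 0) in every library for Ncapd2, Kif20a, Cenpf and Rad21 footprints (top) and Ncapd2, Kif15, Cenpe and Ndc80 RNA (bottom), with points in replicate order and lines and bars for the mean and SD of each group. Ncapd2 footprints lie at 147 to 170 in the Ctu1KO DMSO libraries and at 196 to 224 in the control DMSO libraries, and Cenpe RNA is higher in torin 1 than in DMSO in both genotypes.

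By role, the kinesins and kinetochore genes had the lowest footprint medians after Ctu1 loss in DMSO, an order that differed under torin 1. The 9 kinesins were all below 0, with a median of -0.41, 1 called lower (Kif20a) and values from -0.55 for Kif11 to -0.27. The 9 centromere and kinetochore genes had a median of -0.38, with Cenpf called and 2 above 0. The 7 cyclins and kinases were all below 0 with a median of -0.26 and none called: Ccnb1 was at -0.26 ± 0.09 (edgeR, adjusted p = 0.147), Cdk1 at -0.18 ± 0.10 (adjusted p = 0.389, edgeR) and Plk1, the polo-like kinase of centrosome maturation, at -0.32 ± 0.11 (edgeR, adjusted p = 0.134). Aurkb, the kinase of the passenger complex that corrects faulty attachments, was at -0.28 ± 0.12 (edgeR, adjusted p = 0.239). The 9 genes of cohesin, condensin and topoisomerase were all below 0 as well, with a median of -0.18 and Ncapd2 called. RNA medians lay between -0.29 and -0.10 in every role. Under torin 1 the lowest footprint median was that of the cyclins and kinases, at -0.35, followed by the centromere and kinetochore genes at -0.28 and the kinesins at -0.24.

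**Figure D3:**
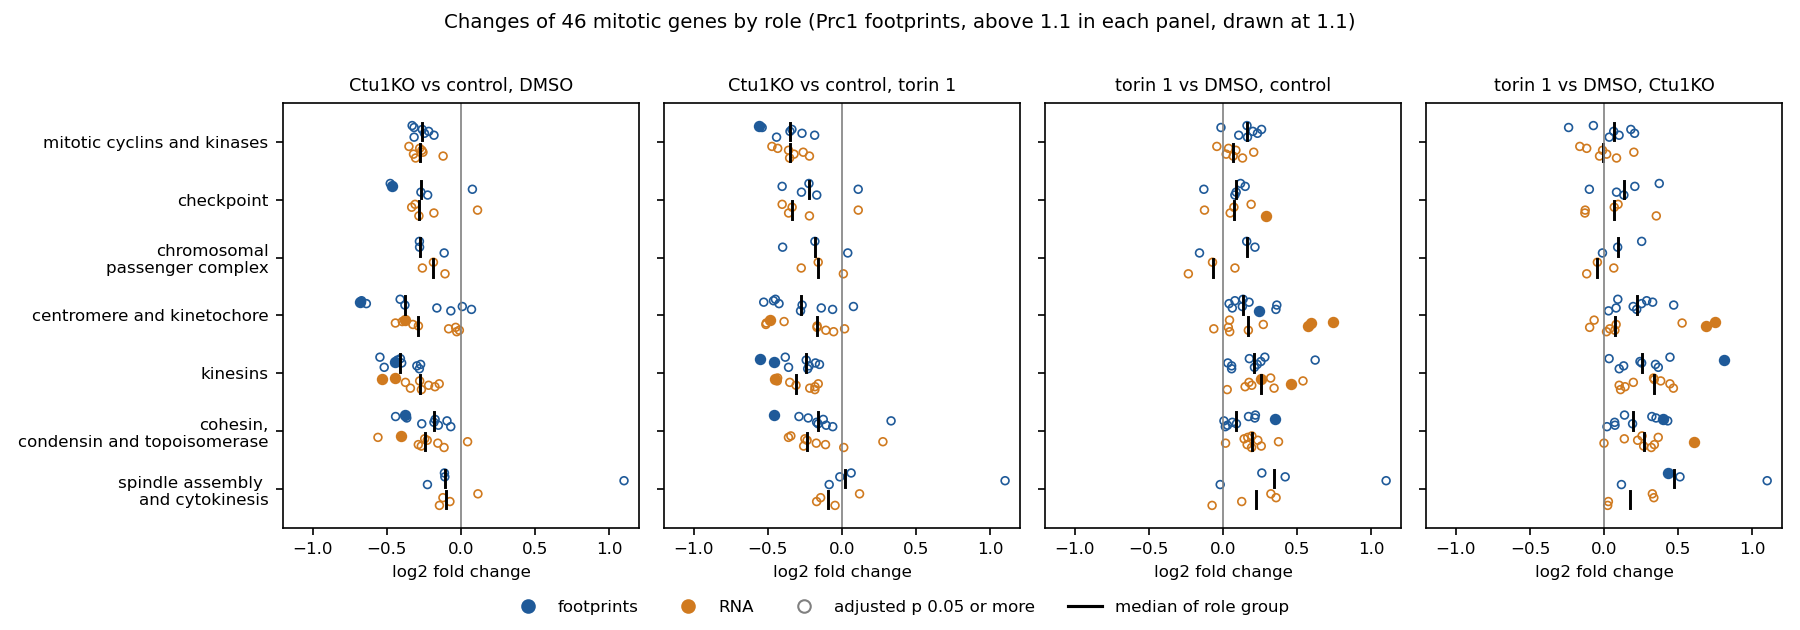
Log2 fold changes (x axis) of the 46 genes by role in 4 comparisons, footprints in blue and RNA in orange, filled where the adjusted p was under 0.05, with black lines for the median of each role. After Ctu1 loss nearly all points lie left of 0 in both assays, and in torin 1 most lie right of it. Prc1 footprints, above 1.1 in each comparison, are drawn at 1.1.

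Footprints and RNA moved by like amounts. In this comparison, 40 of the 46 genes were below 0 in both assays, and over the 45 genes other than Prc1 the fold changes of the assays had a Pearson correlation of 0.80, a description across genes that share their libraries. Translational efficiency, the change in footprints beyond that in RNA, was tested as an interaction in replicates 1 to 3. No gene of the 46 was called in either direction (edgeR; 0 of 46 at an unadjusted p under 0.05, and 0 by DESeq2), and 0% of the 10117 genes tested were (380 at an unadjusted p under 0.05, and 21 by DESeq2). The smallest unadjusted p-values were those of Bub1 (log2 -0.31 ± 0.18), Prc1 (1.16 ± 0.72) and Kif11 (-0.22 ± 0.15). The value of Prc1 was -0.25 without Ctu1KO replicate 3 and -0.22 in replicates 1 and 2 alone. Changes were also put into simulated counts of genes drawn from the more highly counted of those 10117, not into the 46. There this test recovered 2.99% of 67 changes of 0.5 on the log2 scale and 40.3% of 67 changes of 1. A difference of the size seen in the footprints was thus hardly detectable at this replication.

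**Figure D4:**
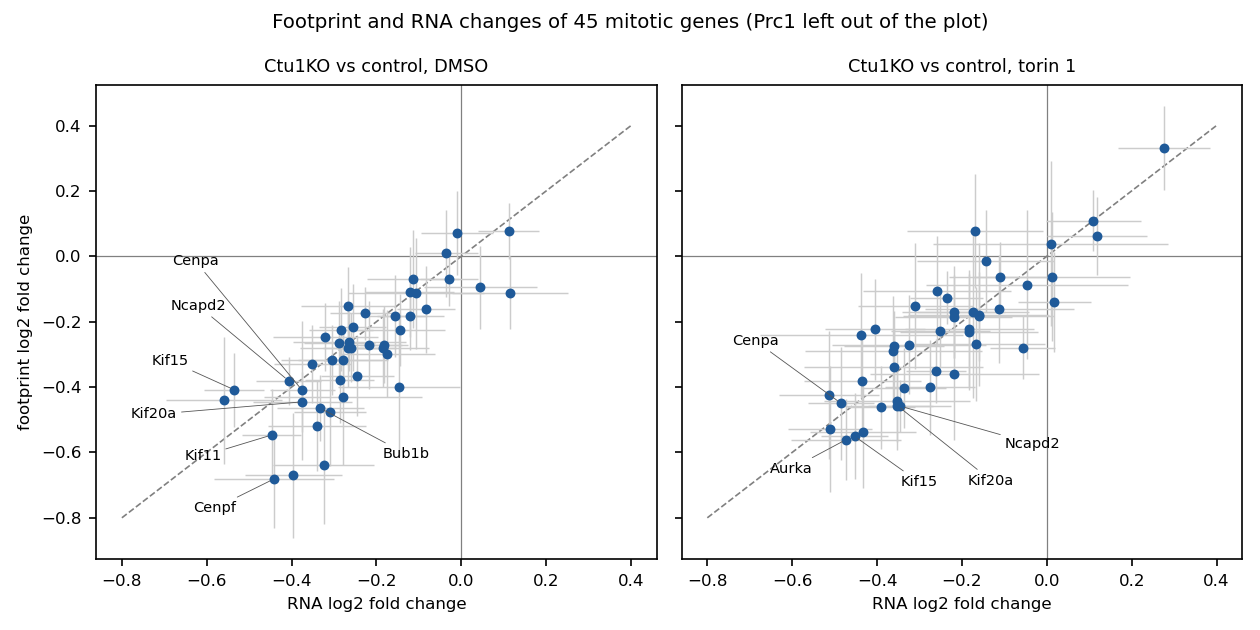
Footprint log2 fold change (y axis) against RNA log2 fold change (x axis) of Ctu1KO against control cells in DMSO (left) and in torin 1 (right) for 45 genes, with SE bars and the line of equal change dashed. Prc1 is left out, genes called in either assay are named, and most points lie below 0 on both axes and near the dashed line.

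Ctu1 loss under torin 1 gave the same kind of comparison in other libraries than those in DMSO. The libraries are separate but not independent, since same-numbered DMSO and torin 1 libraries of control cells deviated together, with correlations of 0.46 to 0.66 in footprints and 0.53 to 0.84 in RNA. Footprints of 40 of the 46 genes were lower in Ctu1KO cells, with a median log2 fold change of -0.23 beside 0.01 over all genes. They fell for 4, namely Aurka, Kif15, Ncapd2 and Kif20a, and rose for none, beside 2.6% of 9913 genes called lower, 2.23% higher and 4.83% in all. Ncapd2 had 229 to 260 CPM (median 245) in control and 168 to 199 (median 174) in Ctu1KO libraries, with no overlap, and a log2 fold change of -0.46 ± 0.08 (edgeR, adjusted p = 0.00324). Aurka, the kinase of spindle poles, had 115 to 157 CPM (median 133) in control and 75.5 to 117 (median 84.2) in Ctu1KO libraries. These overlapped by 1 Ctu1KO library, and the log2 fold change was -0.56 ± 0.12 (edgeR, adjusted p = 0.0178). Kif15 had 63.0 to 105 CPM (median 84.5) against 48.2 to 65.7 (median 57.4), a log2 fold change of -0.55 ± 0.13 (edgeR, adjusted p = 0.0266). Kif20a had 474 to 728 (median 625) against 369 to 503 CPM (median 438), and fell by 0.46 ± 0.11 on the log2 scale (edgeR, adjusted p = 0.0312). The groups of Kif15 and Kif20a overlapped. Of the 12 fits that left out 1 library, Ncapd2 and Aurka were called in 12, Kif15 in 8 and Kif20a in 6.

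Replicate numbers paired these libraries, and with the replicate block 19 genes fell and 2 rose, Prc1 and Smc1a, beside 7.35% and 7.02% of all genes. The 19 included Cenpf, Ccna2, Plk1, Ccnb1, Cdk1, Knl1 and Bub1b. Groups did not overlap for 4 genes, all lower (Ccna2, Ccnb2, Zwint and Ncapd2), beside 4.31% of all listed genes, 2.52% lower and 1.8% higher. Without the block, the count was 8 without Ctu1KO replicate 1, 7 without control replicate 1, and 2 without control replicate 5 or 6 or Ctu1KO replicate 2 or 4. A term for replicates 1 and 2 against 3 to 6 gave 14, beside 914 of all 9913 genes, replicates 3 to 6 alone gave 12, and replicates 1 to 3 alone and 1 and 2 alone gave 0. Of the genes followed in every comparison, Ccnb1 was at -0.34 ± 0.12, Plk1 at -0.44 ± 0.15, Cdk1 at -0.18 ± 0.13 and Aurkb at -0.18 ± 0.14 without the block, and none of these 4 passed the test in that fit.

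RNA under torin 1 was lower in Ctu1KO cells for 40 of the 46 genes, with a median log2 fold change of -0.24 beside 0.01 over all genes. It fell for Cenpa and Kif15, beside 0.352% of 9650 genes called lower, 0.953% higher and 1.31% in all. Cenpa had 300, 298 and 297 CPM in control and 208, 225 and 203 in Ctu1KO libraries, with no overlap, and a log2 fold change of -0.49 ± 0.08 (edgeR, adjusted p = 0.0445). Kif15 had 78.6, 79.5 and 75.5 against 54.1, 55.7 and 59.9 CPM, a log2 fold change of -0.45 ± 0.08 (edgeR, adjusted p = 0.0492). With the replicate block, which paired these libraries, 29 genes fell and Smc1a rose, beside 15.5% of genes called lower. Of the 18 genes with no overlap, 17 were lower and Smc1a was higher, beside 26.4% of all listed genes, 13.1% lower and 13.3% higher. The unblocked calls were 4 without Ctu1KO replicate 3 and 0 without any other single library. Translational efficiency was called for none of the 46 (edgeR; 0 at an unadjusted p under 0.05), beside 0.114% of 9644 genes.

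The Ctu1KO comparisons in DMSO and in torin 1, made on separate libraries, went the same way for most genes. Footprints were lower in both for 39 of the 46, beside 35.2% of 9857 listed genes, and Kif20a and Ncapd2 were called in both. RNA was lower in both for 40, beside 39.95% of 9607 genes, and Cenpa and Kif15 were called in both. Of the 6 RNA fits that left out 1 library, Cenpa was called in 0 in DMSO and 1 in torin 1. Kif15 was called in 3 and 1. Among the exceptions were Smc1a and Bub3, a checkpoint protein that recruits Bub1 and Bub1b to kinetochores. Bub3 footprints were at 0.08 in DMSO and 0.11 in torin 1, and its RNA at 0.11 in each, none of them called with or without the block. Smc1a footprints were at -0.09 in DMSO and 0.33 in torin 1, and its RNA at 0.04 and 0.28.

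Torin 1 addressed what acute mTOR inhibition does to the same genes. In control cells footprints were above DMSO for 42 of the 46 genes, with a median log2 fold change of 0.16 beside 0.01 over all genes. They rose for Rad21 and Zwint and fell for none, beside 2.91% of 9856 genes called higher, 4.33% lower and 7.24% in all. Rad21, the cleavable ring subunit of cohesin, had 106 to 114 CPM (median 111) in DMSO and 133 to 155 (median 141) in torin 1. All 6 torin 1 libraries lay above all 6 DMSO libraries, with a log2 fold change of 0.35 ± 0.07 (edgeR, adjusted p = 0.00451) and a call in each of the 12 fits that left out 1 library. Zwint had 265 to 301 CPM (median 274) against 313 to 338 (median 328), also with no overlap, and a log2 fold change of 0.24 ± 0.06 (edgeR, adjusted p = 0.0299).

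These libraries paired by replicate number, and the block gave 15 genes called higher and none lower, beside 9.88% of all genes called higher. Among the 15 were Kif18a (0.62), Ect2 (0.40), Ndc80 (0.36), Spc25 (0.36), Kif11 (0.26) and Ccnb1 (0.25), as log2 fold changes of that fit. Groups did not overlap for 3 genes (Zwint, Ncapd2 and Rad21), all higher, beside 5.44% of listed genes, 2.01% higher and 3.43% lower. The unblocked count was 7 without torin 1 replicate 1, 3 without DMSO replicate 6 or torin 1 replicate 4, and 1 without DMSO replicate 1, 2, 3 or 5 or torin 1 replicate 3 or 6, that 1 being Rad21. It was 11 with the term for replicates 1 and 2 (1218 over all genes), 5 within replicates 3 to 6, and 0 within replicates 1 to 3 and within 1 and 2. Scaling to library totals instead of TMM gave 8 calls and moved the median of all genes up by 0.10 on the log2 scale.

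RNA after torin 1 in control cells rose for 6 of the 46 genes and fell for none, beside 5.69% of 9617 genes called higher, 7.4% lower and 13.1% in all. Of the 46, 40 were above 0, with a median of 0.16 beside 0.00070 over all genes. Cenpe had 47.1, 56.7 and 55.2 CPM in DMSO and 94.2, 89.6 and 82.7 in torin 1, a log2 fold change of 0.74 ± 0.09 (edgeR, adjusted p = 0.00352). Cenpf had 57.2, 67.3 and 64.7 against 98.4, 101 and 86.7 CPM, a log2 fold change of 0.60 ± 0.09 (edgeR, adjusted p = 0.00687). Both were called in each of the 6 fits that left out 1 library. Ndc80, the microtubule-binding subunit that names its complex, had 33.2, 33.2 and 37.5 against 43.4, 51.2 and 59.7 CPM and rose by 0.57 ± 0.12 (edgeR, adjusted p = 0.0224). Kif20b, a kinesin of late cytokinesis, rose by 0.46 ± 0.12 (edgeR, adjusted p = 0.0472), Ttk, the checkpoint kinase also called Mps1, by 0.29 ± 0.07 (edgeR, adjusted p = 0.0429), and Kif15 by 0.26 ± 0.07 (edgeR, adjusted p = 0.0430). With 1 library left out, Ndc80 was called in 3 of the 6 fits, Kif20b and Ttk in 1 each and Kif15 in 0. The groups of these 6 genes did not overlap, and 12 of the 46 did not, all higher, beside 33.1% of listed genes, 15.3% higher and 17.8% lower.

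Torin 1 RNA libraries paired by number too, and with the block 25 genes rose and 2 fell, Incenp and Bub3, beside 20.7% and 23% of all genes. The unblocked count of 6 was 7 without torin 1 replicate 1, 3 without torin 1 replicate 3, and 2 without DMSO replicate 1 or 2 or torin 1 replicate 2. Ccnb1 (0.09 ± 0.19), Cdk1 (0.07 ± 0.10), Plk1 (0.13 ± 0.16) and Aurkb (-0.07 ± 0.15) did not pass the test in RNA, and the sign of Ccnb1, Cdk1 and Aurkb changed when single libraries were left out. Their footprints were at 0.26 ± 0.10, 0.11 ± 0.10, 0.16 ± 0.12 and 0.16 ± 0.14 and did not pass without the block.

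Footprint changes of Cenpe and Cenpf, whose RNA rose most, were nearer to 0. Cenpe footprints had 31.3 to 48.6 CPM (median 42.7) in DMSO and 34.2 to 49.9 (median 45.9) in torin 1, groups that overlapped almost wholly. The change in translational efficiency of Cenpe was -0.53 ± 0.21 (edgeR, adjusted p = 0.582) and that of Cenpf was -0.38 ± 0.17 (adjusted p = 0.725, edgeR). Zwint had the smallest p, at 0.28 ± 0.10 (edgeR, adjusted p = 0.547). None of the 46 was called (4 at an unadjusted p under 0.05, Prc1 among them), beside 1.18% of 9616 genes, while DESeq2 called 1, and edgeR called 1 without control torin 1 replicate 1.

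In Ctu1KO cells torin 1 gave footprint values above DMSO for 42 of the 46 genes, with a median of 0.19 beside 0.02 over all genes. They rose for Kif18a, Anln and Rad21, beside 3.48% of 9855 genes called higher, 4.52% lower and 8% in all. Rad21 had 99.6, 111, 86.2, 96.3 and 95.7 CPM in DMSO and 120 to 138 (median 128) in torin 1, with no overlap, and a log2 fold change of 0.40 ± 0.09 (edgeR, adjusted p = 0.0166), called in each of the 11 fits that left out 1 library. It was the only gene of the 46 without overlap, beside 8.16% of listed genes, 3.47% higher and 4.69% lower. Kif18a had 6.58, 10.1, 9.74, 14.2 and 12.7 CPM against 13.1 to 24.4 (median 20.2) and rose by 0.81 ± 0.22 (edgeR, adjusted p = 0.0349). Anln, an actin-binding scaffold of the contractile ring, had 113, 112, 75.5, 107 and 102 against 112 to 158 CPM (median 138) and rose by 0.43 ± 0.12 (edgeR, adjusted p = 0.0494). The last 2 overlapped, and with a library left out Kif18a was called in 4 and Anln in 1 of the 11 fits. With the replicate block, although these libraries were not taken as pairs, Kif18a was not called (edgeR, adjusted p = 0.0727).

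The count of 3 was 6 without torin 1 replicate 1, 5 without DMSO replicate 4, 2 without DMSO replicate 2 or torin 1 replicate 2, and 1 without DMSO replicate 1, 3 or 5 or torin 1 replicate 3, 5 or 6. It was 7 with the term for replicates 1 and 2 (1368 over all genes) and 0 within replicates 1 to 3 and within 1 and 2. RNA in the same comparison rose for Cenpe, Ndc80 and Smc1a and fell for none, beside 3.73% of 9619 genes called higher, 4.52% lower and 8.25% in all. Of the 46, 35 were above 0, with a median of 0.11. Cenpe had 42.6, 43.1 and 33.7 CPM in DMSO and 67.5, 67.7 and 66.9 in torin 1, a log2 fold change of 0.75 ± 0.11 (edgeR, adjusted p = 0.0111). Ndc80 had 26.8, 29.9 and 27.3 against 38.8, 43.0 and 54.8 CPM, and rose by 0.69 ± 0.14 (edgeR, adjusted p = 0.0260). Smc1a, the ATPase that pairs with Smc3 in cohesin, had 111, 127 and 88.0 against 163, 181 and 157 CPM, and rose by 0.60 ± 0.14 (edgeR, adjusted p = 0.0434). The groups of these genes did not overlap, and 13 of the 46 did not, all higher, beside 30.3% of listed genes, 15.2% higher and 15.2% lower. With the block, under which these libraries paired, 19 genes rose and none fell, beside 17.1% of all genes called higher. The unblocked count was 1 without any 1 of the 3 DMSO libraries and 0 without torin 1 replicate 2. Translational efficiency was called for none of the 46 (edgeR; 0 at an unadjusted p under 0.05), beside 1.77% of 9615 genes.

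The torin 1 comparisons in control and Ctu1KO cells share no library, but same-numbered torin 1 libraries of the genotypes also deviated together, with correlations of 0.34 to 0.58 in footprints and 0.65 to 0.81 in RNA. Footprints were higher in both for 41 of the 46 genes, beside 39.4% of listed genes, with Rad21 called in both. RNA was higher in both for 33, beside 41.6% of listed genes, with Cenpe and Ndc80 called in both. Whether torin 1 acted differently in the 2 genotypes was tested as an interaction in the footprints. No gene of the 46 was called (edgeR, 1 at an unadjusted p under 0.05, and 0 by DESeq2), beside 0.639% of 9857 genes, all of them lower. The smallest p-values were those of Smc1a (0.43 ± 0.18), Zwint (-0.21 ± 0.12) and Aurka (-0.23 ± 0.17), as log2 differences of Ctu1KO minus control. On simulated counts this test recovered 5.97% of differences of 0.5 on the log2 scale and 61.2% of differences of 1.

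RNA changes after torin 1 were correlated with features of the message among these genes, and footprint changes less so, a difference that was not tested. Over the 46, the VAA share and the RNA log2 fold change had a Pearson correlation of 0.58 in control and 0.53 in Ctu1KO cells, and the log2 coding length gave 0.56 and 0.62. For the footprint log2 fold change after torin 1 in the same genes, VAA share gave 0.12 and 0.30, and log2 coding length -0.08 and 0.23. The points share their libraries, and VAA share and length were themselves correlated at 0.58 among these genes, beside 0.06 in all genes. Over all listed genes the correlation of VAA share with the RNA change was 0.07 and -0.02, and that of log2 coding length 0.06 and 0.12. For the footprint changes between Ctu1KO and control cells, the correlation with VAA share among the 46 was -0.03 in DMSO and 0.11 in torin 1, or -0.24 and 0.03 without Prc1.

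Prc1, a microtubule bundler of the central spindle, differed from the other 45 genes. Its footprints ranged from 193 to 8736 CPM, with an SD of 1.63 on the log2 scale over the 23 libraries, above that of 99.7% of genes. In control DMSO libraries they were 234 to 1049 (median 333), in control torin 1 libraries 224 to 3983 (median 849), in Ctu1KO DMSO libraries 193, 257, 1294, 1981 and 3221, and in Ctu1KO torin 1 libraries 254 to 8736 (median 1813). Replicate 1 was the lowest in 3 of the groups and replicate 2 in control DMSO cells, and the highest was replicate 6, or replicate 5 in Ctu1KO DMSO cells. The RNA stayed within 309 to 421 CPM. The footprint log2 fold changes were 1.63 ± 0.62 for Ctu1 loss in DMSO and 1.38 ± 0.71 in torin 1, and 1.55 ± 0.54 for torin 1 in control and 1.30 ± 0.82 in Ctu1KO cells, none of them called without the block. With the block it was called higher in torin 1 in control cells and in Ctu1KO cells under torin 1, at 1.27 and 1.15.

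The gene with the footprint profile most like that of Prc1 over the 23 libraries was Manba, a lysosomal mannosidase, at a Pearson correlation of 0.97 among 8855 genes, followed by Rgs2 (0.91), Sorbs2 (0.90) and Tspan5 (0.90), which were looked at after their values were seen. Manba footprints were 7.82 to 66.3 CPM (median 19.0) in control DMSO and 10.4 to 375 (median 101) in Ctu1KO torin 1 libraries. In Ctu1KO DMSO libraries Manba had 11.1, 8.78, 71.8, 76.5 and 169 CPM, low and high in the same libraries as Prc1.

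**Figure D5:**
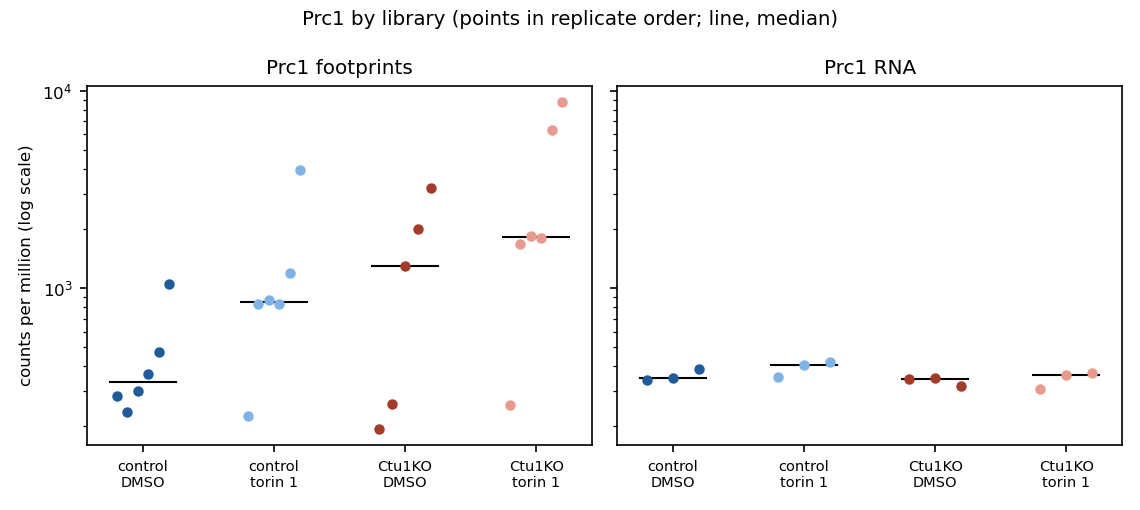
Prc1 CPM (y axis, log scale) in each footprint library (left) and RNA library (right), with points in replicate order and lines for group medians. Footprints run from 193 to 8736 with replicates of 1 group far apart, whereas RNA lies between 309 and 421 in all 12 libraries.

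Further genes of mitosis, 114 from a list that holds the APC/C, further kinases, phosphatases, kinetochore, spindle, cohesin and condensin genes, had medians nearer to 0. After Ctu1 loss in DMSO their footprints had a median of -0.09, with 85 below 0, and 7 fell and 1 rose, beside the 1.04% called lower over all genes. Among those that fell was the spindle protein Dlgap5 (-0.68 ± 0.10, edgeR, adjusted p = 0.00435). Anapc11, the RING subunit of the APC/C, rose by 0.42 ± 0.08 (edgeR, adjusted p = 0.0172). All 3 phosphatases Cdc25a, Cdc25b and Cdc25c, which activate cyclin-dependent kinases, fell as well, at -0.47, -0.47 and -0.56, a family singled out once its values were known. In RNA 2 of the 114 fell, among them Cenph (-0.39), and 3 rose, with Ensa (0.45) and Pttg1 (0.38) the most, beside 1.8% and 3.32% of all genes, so these counts are near the background. The median was -0.14.

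Under torin 1, footprints of 4 of the 114 fell in Ctu1KO cells, led by Knstrn (-0.65 ± 0.14, edgeR, adjusted p = 0.0177), a spindle and kinetochore protein also called kinastrin, and Ube2c (-0.58 ± 0.10, edgeR, adjusted p = 0.00265), the ubiquitin-conjugating enzyme of the APC/C. Securin, Pttg1, rose by 0.40 ± 0.10 (edgeR, adjusted p = 0.0342), beside 2.6% of all genes called lower and 2.23% higher, and the median of the 114 was -0.10. In RNA none of the 114 was called, with a median of -0.18.

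After torin 1 Cdc25a fell in both genotypes and both assays, by 0.78 ± 0.12 and 0.81 ± 0.18 in footprints of control and Ctu1KO cells and by 0.89 ± 0.09 and 1.01 ± 0.12 in RNA. Mastl, the Greatwall kinase, rose in all 4, by 0.69 ± 0.15 and 0.78 ± 0.20 in footprints and by 0.85 ± 0.10 and 0.90 ± 0.18 in RNA. Haspin, a histone H3 kinase, fell in RNA, by 0.90 ± 0.11 in control and 1.09 ± 0.19 in Ctu1KO cells. In footprints 4 of the 114 rose and 2 fell in control cells, with Cenpl (0.58) and Nsl1 (-0.44) next, and 2 rose and 2 fell in Ctu1KO cells, with Dlgap5 (0.54) and Anapc5 (-0.34) next. In RNA 8 rose and 3 fell in control cells, with Oip5 (0.50) next, and 3 rose and 5 fell in Ctu1KO cells, with Cenpc1 (0.52) next. All were called by edgeR at an adjusted p under 0.05. The shares over all genes were 2.91% higher and 4.33% lower in control and 3.48% and 4.52% in Ctu1KO footprints, and 5.69% and 7.4% in control and 3.73% and 4.52% in Ctu1KO RNA, so the counts of the 114 lay near or below the background.

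For the 48 DNA replication genes used as a second proliferation list, footprint medians were -0.10 and -0.08 after Ctu1 loss in DMSO and in torin 1, and -0.03 after torin 1 in each genotype. Of the 48, 1 fell in each of the comparisons in DMSO, of torin 1 in control and of torin 1 in Ctu1KO cells, 2 fell in Ctu1KO cells under torin 1, and none rose. Over all genes 1.04%, 4.33%, 4.52% and 2.6% were called lower in these comparisons. In RNA 1 of the 48 fell after Ctu1 loss in DMSO, 2 after torin 1 in control, none after torin 1 in Ctu1KO and 1 after Ctu1 loss in torin 1, beside 1.8%, 7.4%, 4.52% and 0.352% of all genes called lower, and none rose. Their RNA medians were -0.12 and -0.07 after Ctu1 loss and -0.05 and -0.01 after torin 1. The 46 mitotic genes had lower medians than these 48 after Ctu1 loss and higher medians after torin 1 in both assays, a difference between lists that was not tested. Both lists were chosen with earlier results of these data known, so this contrast does not show that the shift is particular to mitotic genes.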

How the data were processed

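Ribosome footprints and polyadenylated RNA of EPP2 cells were deposited by the authors as whole-number read counts per gene symbol, 1 table per library, with separate symbol sets for DMSO (10420 entries) and torin 1 (9936 entries). Per the labels, footprint libraries were trimmed with cutadapt 3.4, deduplicated with UMI-tools 1.1.1 and aligned with STAR 2.5.3a, with GRCm38 and mm10 named as builds. The paper gives a human assembly at that point, and which assembly the footprint counts rest on was not settled here. RNA was made with a stranded poly(A) kit and aligned with STAR, and all RNA counts were even, so halved counts were tried too. Read counts of Ccnb1, Ccnb2, Kif22 and Kif4 may be shared with annotated pseudogenes.

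The 46 members and the lists were chosen with earlier results of these data known. Named genes were Ccnb1, Cdk1, Plk1, Aurkb and Ctu1 throughout, up to 5 called members per direction with the largest change or, where none was called, the 3 with the smallest p, and up to 2 called genes per direction of the further mitotic list. Some values under this rule are not reported here. Counts were compared with edgeR 4.0.16 in R 4.3.3 (TMM scaling, quasi-likelihood test, mean of at least 10 counts, Benjamini-Hochberg over all genes, calls at 0.05), within 2 groups at a time, or over all 4 for the difference of torin 1 effects. Translational efficiency was the interaction of assay and group. Fold changes are given with the SE, and CPM are counts per 1000000 after TMM scaling. DESeq2 1.42.0, other filters and scalings, subsets of replicates and a replicate block were alternatives. The study's methods give 2 replicates on consecutive days, its legends more independent experiments, and the labels do not say which of the 5 or 6 footprint and 3 RNA libraries of a group share an experiment. In the 3 groups of 6 footprint libraries, replicates 1 and 2, 3 and 4, and 5 and 6 lay closest to each other by their variance over counting error, which rises with depth, and so did replicates 1 and 2 in RNA. Libraries of 1 experiment may therefore be treated as separate, and p-values then measure only the spread between libraries.

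Deviations of same-numbered libraries correlated at 0.46 to 0.66 for torin 1 in control footprints, 0.34 to 0.58 for Ctu1 loss under torin 1 and 0.49 to 0.84 over the RNA comparisons, above 0.1 in every pair, so those numbers were taken as pairs. They ran from -0.10 to 0.51 and from -0.04 to 0.46 in the other footprint comparisons, which were not. The scripts were tested on simulated data: in footprints of Ctu1 loss in DMSO, 23.9% of changes of 0.5, 86.6% of changes of 1 and 100% of changes of 2 on the log2 scale were recovered. The variance between 2 libraries of a group was 21.7 to 139 times counting error in footprints and 40.0 to 705 times in RNA. No 2 libraries of a group thus agreed within sampling noise.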

Additional observations from a re-analysis of the deposited data

Results flagged for a closer look

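In 4 groups of the named genes, 1 footprint library stood apart from the rest of its group by Dixon's criterion. With 100 such groups tested, chance alone would mark about 1 in 20. Cenpe in Ctu1KO DMSO replicate 3 had 13.5 CPM, beside 26.98 to 31.4 in the other 4 libraries. Cenpf in Ctu1KO torin 1 replicate 1 had 99.4 CPM, beside 38.9 to 56.3 in the other 5, and it was the only Ctu1KO torin 1 library above the control torin 1 libraries for this gene. Prc1 in control DMSO replicate 6 had 1049 CPM, beside 234 to 471, and in control torin 1 replicate 6 it had 3983 CPM, beside 224 to 1196. Over all 46 genes, 8 of 184 groups were marked.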

How the results depend on the processing

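Called members by DESeq2 were 10, 6, 5 and 9 in footprints (Ctu1 loss in DMSO, torin 1 in control, torin 1 in Ctu1KO, Ctu1 loss in torin 1) and 17, 14, 6 and 12 in RNA, and 1 for translational efficiency of torin 1 in control cells, beside 700, 1068, 1155 and 842, 1530, 1963, 1609 and 1092, and 227 of all genes. Library totals gave 8 and 5 for torin 1 in footprints and moved the median of all genes by 0.10 and 0.11. The replicate block gave 15 and 21 in the paired footprint comparisons, 28, 27, 19 and 30 in RNA, and 5 and 4 in the unpaired footprint comparisons, where 2 of 5 libraries correlated best with their own number and Bub1b (DMSO) and Kif18a (torin 1, Ctu1KO) were no longer called, and it changed no call of the interaction or of translational efficiency. A term for replicates 1 and 2 gave 11, 11, 7 and 14 in footprints, beside 737, 1218, 1368 and 914 of all genes, replicates 3 to 6 gave 2, 5, 3 and 12, and replicates 1 to 3 or 1 and 2 gave 0. Replicates 1 and 2 gave 11 in RNA for Ctu1 loss in DMSO and 0 in torin 1. Leaving out 1 library gave 1 to 6, 1 to 7, 1 to 6 and 2 to 8 in footprints, 0 to 3, 2 to 7, 0 to 3 and 0 to 4 in RNA, and 0 to 1 for translational efficiency of torin 1 in control cells. Filters and halved RNA counts kept counts within 1.5 times.

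Values that changed sign, none of them called, were the following, as log2. In footprints, replicates 1 and 2 gave -0.059 for Cdk1 and -0.41 for Plk1 (torin 1, Ctu1KO), where replicates 1 to 3 gave -0.085 for Plk1, and 0.018 for Aurkb (Ctu1 loss, torin 1). For the interaction, Ccnb1 was 0.054 within replicates 1 to 3 and 0.048 within 1 and 2, Plk1 0.064 within 3 to 6, and Cdk1 -0.0067 by DESeq2, -0.039 with the block, -0.030 with the term, -0.039 within 1 to 3 and -0.16 within 1 and 2. Ctu1 RNA was -0.035 within 1 and 2. In translational efficiency of Ctu1 loss in DMSO, all footprint replicates gave 0.00056 for Ccnb1 and -0.013 for Plk1, the block -0.0039 for Plk1, library totals 0.033 for Aurkb, and replicates 1 and 2 -0.22 for Prc1. For Plk1, library totals gave 0.076 and all footprint replicates 0.032 (torin 1, control), and totals 0.0051 (torin 1, Ctu1KO) and 0.0018 (Ctu1 loss, torin 1), where Cdk1 was -0.043 within 1 and 2 and Aurkb -0.035 with all footprint replicates.

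Leaving out 1 library spanned -0.028 to 0.12 for Plk1 footprints (torin 1, Ctu1KO), -0.036 to 0.063 for the Cdk1 interaction and -0.039 to 0.053 for Ctu1 RNA. RNA after torin 1 spanned -0.10 to 0.27 for Ccnb1, -0.0072 to 0.17 for Cdk1 and -0.20 to 0.068 for Aurkb in control cells, and -0.20 to 0.14, -0.11 to 0.080 and -0.16 to 0.092 in Ctu1KO cells. Translational efficiency spanned -0.14 to 0.17 for Plk1, -0.098 to 0.019 for Aurkb and -0.25 to 1.59 for Prc1 (Ctu1 loss, DMSO), -0.0026 to 0.18 for Cdk1 and -0.14 to 0.0039 for Plk1 (torin 1, control), and -0.035 to 0.21 for Ccnb1 and -0.11 to 0.088 for Cdk1 (Ctu1 loss, torin 1). The causes were not tested.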
